A study of Rattus norvegicus with 3 samples.

Results

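The genes described here encode the ligands and receptors of the tumour necrosis factor (TNF) superfamily and the TRAF adaptor proteins, as measured in the motor cortex of rats after cerebral ischemia and reperfusion. In this model the brain is cut off from its blood flow, which then returns. Members were taken by gene symbol: Tnf, Lta, Ltb, Ltbr, Fas, Faslg, Cd27, Cd40, Cd40lg, Cd70 and every symbol that starts with Tnfsf, Tnfrsf or Traf and a digit. This rule found 49 symbols on 52 of the 30957 rows of the files, because Tnf, Ltb and Tnfsf11 are each listed on 2 rows, and the row with the higher mean was used for each of these. By role the members are 17 ligands, 22 receptors, 7 TRAF proteins and 3 genes named for an interaction with Traf3. No measured value entered the choice of symbols.

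TNF superfamily ligands are mostly trimers on the cell surface, many of which can be cut off as soluble factors, and they act by clustering their receptors. Receptors with a death domain can recruit caspase-activating adaptors, while the others bind TRAF proteins, ubiquitin ligases and scaffolds that pass the signal to NF-kB and stress kinases. In the brain, microglia are a well known source of TNF, and the superfamily is known both for inflammation after ischemia and for functions in glia and neurons.

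Messenger RNA was sequenced from 3 male Sprague-Dawley rats, numbered 19, 35 and 70, which all underwent ischemia and reperfusion and form 1 group. Each carries the time label 8 weeks, which may be an age or a time after the operation. No control group was analysed here, so the values describe levels after ischemia and differences between rats, and no change caused by ischemia can be read from them. Each rat has its own number, so the libraries were taken as separate animals.

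Levels are FPKM, fragments per kilobase of gene and per 1000000 fragments. The values imply a similar depth, with a single fragment per kilobase equal to 0.0643, 0.0608 and 0.0623 FPKM in rats 19, 35 and 70. The library of rat 35 stood apart in its cell type markers: the summed FPKM of 11 neuronal markers was 79.1 in rat 35 against 1701 in rat 19 and 2373 in rat 70, and that of 12 markers of microglia and macrophages was 3327 against 1124 and 823. All 11 neuronal markers were lowest in rat 35 and all 12 markers of microglia and macrophages were highest in it. Summed markers of fibroblasts and meninges were 2910 in rat 35 against 280 and 278, with Col1a2 listed at 0 in every rat, and those of neutrophils were 144 against 16.7 and 7.19. Tissue of this kind mixes many cell types, so fewer cells of a type and less RNA per cell cannot be told apart. The part that the cell mix of each library plays in the differences below was not tested.

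Of the 49 members, 31 had a mean level of 1 FPKM or more over the rats: 8 of 17 ligands, 13 of 22 receptors, all 7 TRAF proteins and the 3 genes named for Traf3. A further 17 were above 0 but under a mean of 1 FPKM, and Tnfsf11, the ligand of the osteoclast receptor RANK, was listed at 0 in every rat on both of its rows. At 1 FPKM or more were 30 members in rat 19, 33 in rat 35 and 23 in rat 70, beside 14082, 13554 and 13696 of all 30957 genes. In every rat 22 members reached that level, and 9 of the 31 fell under it in at least 1 rat. Of the 14134 genes at a mean of 1 FPKM or more, 12479 reached it in every rat. Traf1, Tnfrsf10b and Tnf passed it only in rat 35, and so are among the 31 through that rat alone. Ltb passed it in rats 19 and 35, but its mean over rats 19 and 70 was under 1 FPKM. It too is among the 31 only with rat 35 counted.

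Rat 35 held the highest level of 22 of the 31 members (71%), against 45.4% of all 14134 genes at a mean of 1 FPKM or more. It held the lowest level of 3 members, Tnfrsf25, Tnfrsf11b and Traf3 (9.68%, against 36.5% of genes). Rat 70 was lowest in 21 members (67.7%, against 44.2% of genes). The order rat 70 below rat 19 below rat 35 was found in 18 of the 31 members and in 33.6% of genes. When libraries were rescaled after leaving out mitochondrial genes, rat 35 was highest in 21 members and in 35.6% of genes, and the 1 member that left the count was Traf7.

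More than 2-fold between the highest and the lowest rat, a difference over 1 on the scale log2(FPKM + 1), was reached by 20 members (64.5%), against 42.5% of genes. Rat 35 was the highest in 17 of those 20 (54.8% of the 31, against 20.6% of genes). Between rats 35 and 70, 17 members differed by more than 2-fold and all 17 were higher in rat 35, where 37% of genes differed in either direction. Rats 19 and 35 were over 2-fold apart in 12 members (26.1% of genes), with Tnfrsf25 and Tnfrsf11b higher in rat 19 and the other 10 higher in rat 35. Between rats 19 and 70 only 4 members passed (12.9%, against 11% of genes): Tnfrsf19, Tnfrsf11b, Traf3ip3 and Fas, all higher in rat 19. Leaving out rat 35 therefore left 4 of 28 members over 2-fold, beside 11.1% of genes. With FPKM of 1 or more required in every rat, 12 of 22 members were over 2-fold and 13 were highest in rat 35, beside 38% and 46.5% of genes.

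**Figure D1:**
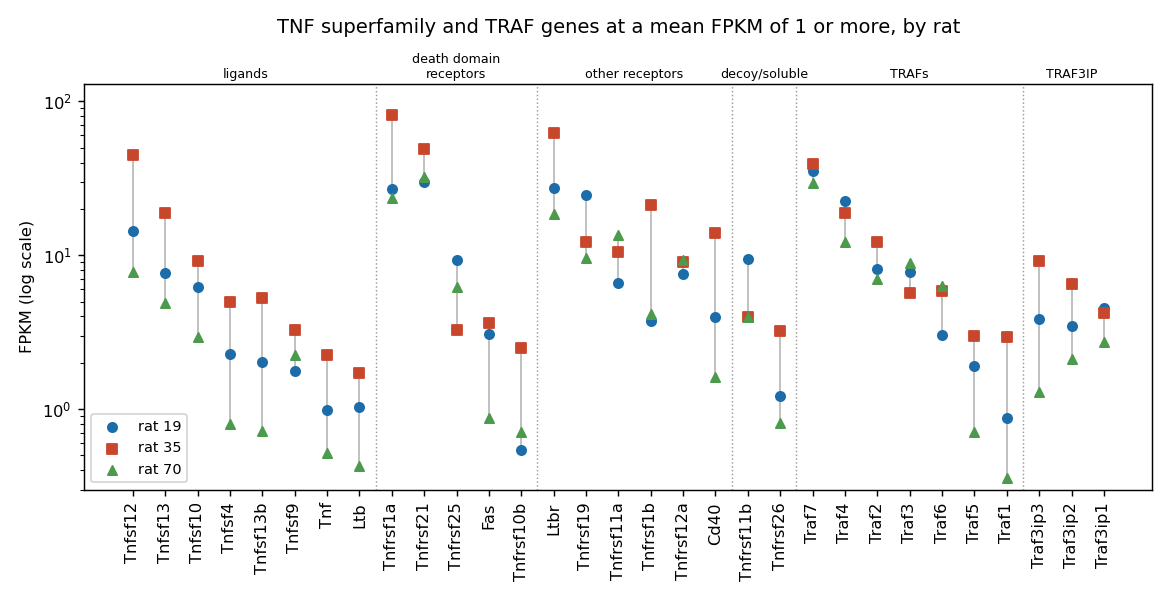
Level in FPKM (log axis) of the 31 members at a mean of 1 FPKM or more in each rat, 1 point per rat, grouped by role, with a grey line from the lowest to the highest rat. All 8 ligands are highest in rat 35, whereas among the TRAF proteins rat 35 is highest in 4 of 7, beside 45.4% of all genes. Tnf, Ltb, Tnfrsf10b and Traf1 are among the 31 only with rat 35 counted.

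All 8 ligands at a mean of 1 FPKM or more were highest in rat 35, 7 of them were lowest in rat 70, and 6 were over 2-fold apart, beside 45.4%, 44.2% and 42.5% of all genes. Tnf and Ltb are among the 8 only with rat 35 counted, and of the 9 ligands under a mean of 1 FPKM 2 were highest in that rat. The median ligand deviated from its mean over the rats by -0.09, 0.74 and -0.76 on the scale log2(FPKM + 1) in rats 19, 35 and 70, where all genes gave 0.02, 0.06 and -0.09. Without a minimum level, the difference between the highest and the lowest of these ligand medians was 0.68 in place of 1.50. Summed over the 8, ligand levels were 36.3, 89.8 and 20.3 FPKM.

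Tnfsf12, the ligand TWEAK that binds Tnfrsf12a, was the ligand with the highest mean, at 14.3, 44.4 and 7.74 FPKM in rats 19, 35 and 70 (22.2 ± 19.6, SD, n = 3). These levels rested on at least 343, 1125 and 191 fragments, and rat 35 was 5.74-fold above rat 70. Its neighbour Tnfsf13, the ligand APRIL that supports plasma cells, was at 7.67, 18.7 and 4.87 FPKM (10.4 ± 7.30) in the same order of rats. Both genes lie on the reverse strand of chromosome 10 in the build Rnor 6.0, Tnfsf13 at 56286887 to 56289952 and Tnfsf12 at 56290780 to 56300077, 828 bp apart, so fragments of transcripts that run through both could be counted to either. Tnfsf13b, the B cell survival factor BAFF, stood at 2.01, 5.28 and 0.726 FPKM (2.67 ± 2.35), a 7.27-fold difference between rats 35 and 70 and the widest ratio among the 8 ligands. B cell markers were near 0 throughout: the 7 found in the files summed to 1.86, 2.65 and 0.608 FPKM and none reached a mean of 1.

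Tnfsf10, the death ligand TRAIL, was measured at 6.25, 9.23 and 2.95 FPKM (6.14 ± 3.14). Rat 70 was lowest, 3.13-fold below rat 35, and rat 19 lay between them. Tnfsf4, the T cell costimulator OX40 ligand, was at 2.27, 4.97 and 0.802 FPKM (2.68 ± 2.11), with the same order of rats and 6.19-fold between the outer ones. Tnfsf9, another T cell costimulator, differed less, at 1.77, 3.26 and 2.25 FPKM (2.43 ± 0.760), and was the 1 ligand of the 8 that was lowest in rat 19.

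Tnf itself was among the least abundant measured ligands, at 0.990, 2.23 and 0.517 FPKM (1.25 ± 0.886). This rested on at least 26, 62 and 14 fragments, with exact 95% Poisson intervals of 0.647 to 1.45, 1.71 to 2.86 and 0.283 to 0.868 FPKM that cover counting error only. The interval of rat 35 lay above those of both other rats, which overlapped each other. In rat 35, where Tnf was highest, 14.4% of genes at a mean of 1 FPKM or more were below it, against 2.49% in rat 19 and 1.71% in rat 70.

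Ltb, which forms a heterotrimer with Lta and signals through Ltbr, was at 1.03, 1.71 and 0.428 FPKM (1.06 ± 0.644), from at least 21, 37 and 9 fragments. Rat 35 was 4.01-fold above rat 70, and its interval of 1.21 to 2.36 FPKM overlapped that of rat 19, 0.637 to 1.57. The files list Tnf and Ltb at 2 places on chromosome 20 (Rnor 6.0), at 4852496 to 4863198, where Lta lies beside them, and at 5184515 to 5192000, where they stand in the reverse order without Lta. The values above are those of Tnf in the first place and of Ltb in the second, and the other rows held 0.306, 0.832 and 0.408 FPKM for Tnf and 0.247, 0.438 and 0.120 FPKM for Ltb. Summed over both rows Tnf came to 1.30, 3.06 and 0.925 FPKM and Ltb to 1.28, 2.15 and 0.547 FPKM, again highest in rat 35 and lowest in rat 70. Near-identical rows can share fragments, and the first copy of Tnf lies within the annotated spans of RT1-CE2, RT1-CE4 and RT1-CE7 on the opposite strand and of AABR07044408.1 on the same strand (0.298, 0.281 and 0.288 FPKM), so the level of each is uncertain. The sources used here do not give whether the counting used strand.

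The promoters of Tnf and Ltb are shown because both genes are classical targets of NF-kB and both have a measured receptor here. They come from RefSeq (build GRCr8, which lists each gene at 1 place), from 250 bases before to 50 bases after the transcription start, 5′ to 3′ on the strand of the gene. Capitals mark TATAAA in Tnf, searched in the 50 bases before the start on the strand of the gene, and the match to the kappa-B consensus in Ltb, searched on both strands. Tnf lies at chr20:3626435-3626734 on the forward strand and Ltb at chr20:3634005-3634304 on the reverse strand.
Tnf: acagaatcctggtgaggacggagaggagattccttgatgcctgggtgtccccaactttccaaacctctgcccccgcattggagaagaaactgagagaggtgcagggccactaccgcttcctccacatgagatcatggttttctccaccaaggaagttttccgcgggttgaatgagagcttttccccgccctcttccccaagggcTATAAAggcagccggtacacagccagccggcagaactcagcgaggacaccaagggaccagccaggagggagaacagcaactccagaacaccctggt
Ltb: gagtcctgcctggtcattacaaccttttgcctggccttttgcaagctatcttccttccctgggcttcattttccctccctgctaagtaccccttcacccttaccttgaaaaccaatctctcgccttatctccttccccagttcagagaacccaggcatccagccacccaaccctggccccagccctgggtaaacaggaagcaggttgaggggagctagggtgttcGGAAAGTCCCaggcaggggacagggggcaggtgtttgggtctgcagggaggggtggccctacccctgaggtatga
TATAAA began 46 bases before the start of Tnf. The match in Ltb reads GGGACTTTCC on the other strand and takes the 10 bases that begin 25 bases before the start. The consensus was not found in the window of Tnf, which says only that these letters are not within it.

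RefSeq promoters were found for 38 of the 49 members. The kappa-B consensus was present in 7 of them (18.4%), those of Cd70, Lta, Ltb, Tnfrsf8, Tnfsf14, Traf3 and Traf3ip2, against 4.51% of the 27457 symbols of the table. Of the 23 with a promoter and a mean of 1 FPKM or more, 3 had it: Ltb, Traf3 with GGGGATTTCC 10 bases before the start, and Traf3ip2 with GGGGCATTCC 235 bases before it. These 3 did not share a pattern between rats, since Ltb and Traf3ip2 were highest in rat 35 and Traf3 was lowest in it. TATAAA stood in the 50 bases before the start in 4 of the 38, all of them ligands, against 2.66% of symbols. Promoters of the 6 TRAF proteins with an entry had a median GC content of 67.8% and a median of 29 CpG sites, against 52.3% and 7 over all symbols.

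The 5 receptors with a death domain were all at a mean of 1 FPKM or more. Of these, 4 were highest in rat 35 and 4 were over 2-fold apart, beside 45.4% and 42.5% of all genes. Tnfrsf10b is in both counts, and is among the 5 only with rat 35 counted. Tnfrsf1a, the main receptor of TNF and the member with the highest mean, was at 27.1, 81.7 and 23.7 FPKM in rats 19, 35 and 70 (44.1 ± 32.5). At least 901, 2871 and 811 fragments lay behind these levels. Rats 19 and 70 were close, and rat 35 was 3.01-fold and 3.45-fold above them. In rat 35, 93.8% of genes at a mean of 1 FPKM or more were below Tnfrsf1a, against 78.3% and 75% in rats 19 and 70.

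Tnfrsf21, the death receptor DR6, known for its functions in neurons and oligodendrocyte precursors, was next in mean level among them, at 29.7, 49.0 and 32.0 FPKM (36.9 ± 10.5). Rat 35 was 1.65-fold and 1.53-fold above rats 19 and 70, which does not reach 2-fold. Fas, the receptor of Fas ligand, differed in another way, with 3.10 and 3.64 FPKM in rats 19 and 35 and 0.879 in rat 70 (2.54 ± 1.46). Rats 19 and 35 had overlapping counting intervals (2.22 to 4.20 and 2.71 to 4.79 FPKM), and rat 70, at 0.454 to 1.53 FPKM, lay below both.

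Tnfrsf10b, the receptor of TRAIL, was at 0.546, 2.51 and 0.706 FPKM (1.25 ± 1.09), from at least 21, 102 and 28 fragments. Rat 35 alone was above 1 FPKM. Tnfrsf25, the death receptor DR3 known from T cells, ran the other way, at 9.29, 3.29 and 6.17 FPKM (6.25 ± 3.00). Its level in rat 35 was 0.354 of that in rat 19, and the interval of rat 35, 2.64 to 4.05 FPKM, lay below those of both other rats. Tnfrsf25 and Traf3 were the 2 of the 31 members for which this was so (6.45%, against 24.9% of the 13952 genes with recovered fragments). For 16 members the interval of rat 35 lay above both others (51.6%, against 31.7% of those genes).

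Among the 6 measured receptors without a death domain, leaving aside decoy receptors, 3 were highest in rat 35 by over 2-fold and 3 were not highest in it. Over all genes 45.4% were highest in rat 35, and 20.6% were so with over 2-fold between the highest and the lowest rat. Ltbr, the receptor of lymphotoxin and of Tnfsf14, was at 27.5, 62.0 and 18.6 FPKM in rats 19, 35 and 70 (36.1 ± 22.9). It lies 35728 bp from Tnfrsf1a on chromosome 4 (Ltbr at 157822840 to 157829241 and Tnfrsf1a at 157864969 to 157877633, Rnor 6.0), on opposite strands. Cd27, the third receptor of that cluster, was at 0.897, 1.04 and 0.0791 FPKM, so the neighbours differed in level.

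Tnfrsf1b, the TNF receptor known from microglia and lymphocytes, had 3.73, 21.2 and 4.13 FPKM (9.70 ± 9.98), from at least 168, 1011 and 192 fragments. The intervals of rats 19 and 70 overlapped (3.19 to 4.34 and 3.57 to 4.76 FPKM). Rat 35 was 5.69-fold and 5.13-fold above them. Its place moved from above 21.2% and 25.6% of genes in rats 19 and 70 to above 71.6% in rat 35. Tnfrsf1b had the largest difference between rats, 2.23 on the scale log2(FPKM + 1), of the members with a RefSeq promoter, and its promoter is shown for that reason. It lies at chr5:162387362-162387661 of GRCr8 on the reverse strand and holds neither searched motif, so no letter is in capitals.
Tnfrsf1b: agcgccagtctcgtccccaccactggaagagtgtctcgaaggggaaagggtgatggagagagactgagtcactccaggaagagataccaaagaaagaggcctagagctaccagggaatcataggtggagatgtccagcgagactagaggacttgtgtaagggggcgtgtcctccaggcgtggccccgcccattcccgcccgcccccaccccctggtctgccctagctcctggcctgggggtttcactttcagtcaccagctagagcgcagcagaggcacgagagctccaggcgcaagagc

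Cd40, the costimulatory receptor of antigen presenting cells and microglia, was at 3.96, 13.8 and 1.63 FPKM (6.48 ± 6.48), from at least 85, 314 and 36 fragments. All 3 intervals were apart, and the 8.50-fold ratio of rat 35 to rat 70 was the largest of the 31 members. Its ligand Cd40lg, made mainly by activated T cells, was at 0.0746, 0.0470 and 0 FPKM, from at least 3, 2 and 0 fragments.

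Tnfrsf19, known as TROY and found on astrocytes and neural progenitors, was highest in rat 19, at 24.5, 12.2 and 9.60 FPKM (15.4 ± 7.95). Rat 19 was 2.55-fold above rat 70, and the counting intervals of all 3 rats were apart. Tnfrsf11a, the receptor RANK, had its highest level in rat 70, at 6.62, 10.5 and 13.5 FPKM (10.2 ± 3.44), a difference under 2-fold on the scale log2(FPKM + 1). Tnfrsf12a, the receptor Fn14 that is known to be induced by injury, was nearly level, at 7.54, 9.02 and 9.25 FPKM (8.60 ± 0.929). Its intervals overlapped in all rats, and rat 35 minus the mean of the other rats moved from 0.10 to -0.10 (log2) when mitochondrial genes were left out of the scaling.

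The 2 decoy or soluble receptors differed between rats in different ways. Tnfrsf11b, osteoprotegerin, a soluble receptor of RANK ligand and TRAIL, was at 9.40, 3.96 and 3.996 FPKM (5.78 ± 3.13), high in rat 19 with rats 35 and 70 alike within counting error. Tnfrsf26, a decoy-like receptor of rodents, was at 1.23, 3.23 and 0.817 FPKM (1.76 ± 1.29), high in rat 35.

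**Figure D2:**
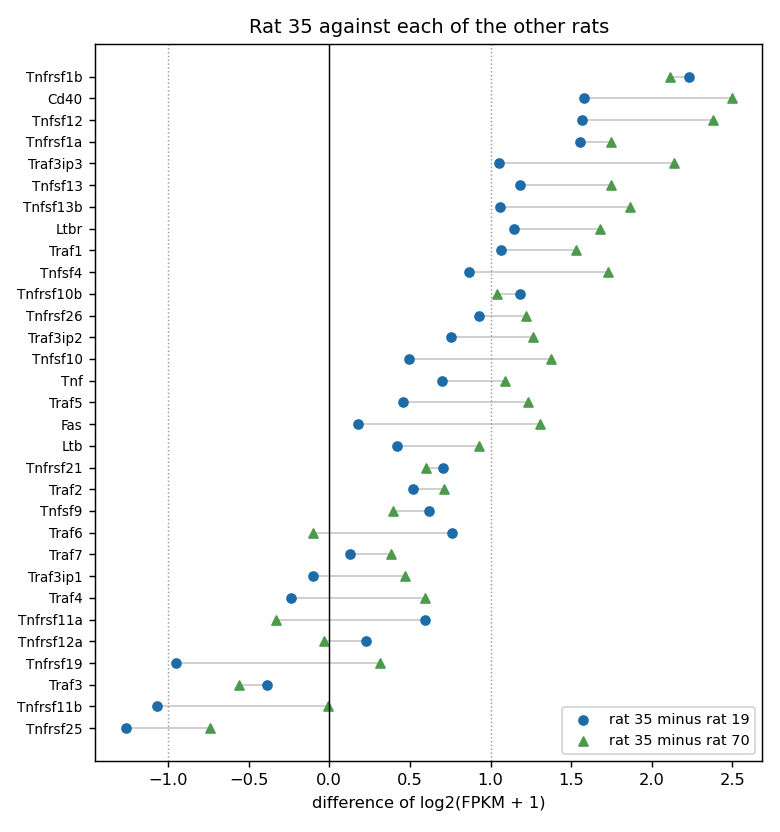
Difference of log2(FPKM + 1) between rat 35 and rat 19 (circles) and between rat 35 and rat 70 (triangles) for the 31 members at a mean of 1 FPKM or more, with dotted lines at 2-fold. Tnfrsf1b and Cd40 lie far to the right in both comparisons, and Tnfrsf25 and Traf3 to the left in both.

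The TRAF proteins varied less than the ligands and receptors as lists. Their median difference between the highest and lowest rat was 0.83 on the scale log2(FPKM + 1), against 1.55 for ligands, 1.26 for receptors and 0.86 for all genes. Over 2-fold apart were 2 of 7, beside 42.5% of all genes. Traf1 is 1 of the 2, and reaches a mean of 1 FPKM only with rat 35 counted. The median TRAF deviated by 0.04, 0.22 and -0.30 in rats 19, 35 and 70, and their summed levels were 79.6, 87.4 and 65.0 FPKM. These are descriptions of lists of unequal size, with no test of the difference between them.

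Traf7, a member with WD40 repeats, had the highest mean of them, at 35.5, 38.9 and 29.6 FPKM (34.7 ± 4.74). Traf4, which is known for roles in development, was at 22.4, 18.8 and 12.1 FPKM (17.8 ± 5.20). Neither varied by 2-fold, and Traf4 was highest in rat 19. Traf2, the adaptor of both TNF receptors that recruits the inhibitor of apoptosis ligases, was at 8.20, 12.2 and 7.04 FPKM (9.13 ± 2.68), with overlapping intervals in all rats. Those intervals rest on the fewest fragments that fit the values, 44, 69 and 39, and would be narrower if the true number were a multiple of these.

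Traf3, which restrains the alternative NF-kB route, was lowest in rat 35, at 7.75, 5.71 and 8.89 FPKM (7.45 ± 1.61). Rat 35 lay at 0.736 and 0.642 of the levels in rats 19 and 70, and its interval of 5.26 to 6.18 FPKM was below both. Traf6, which serves Toll-like receptors as well as CD40 and RANK, was lowest in rat 19, at 3.04, 5.83 and 6.33 FPKM (5.07 ± 1.77). Traf5, an adaptor of costimulatory receptors, was at 1.92, 3.01 and 0.706 FPKM (1.88 ± 1.15), and was over 2-fold apart with rat 70 lowest. Traf1, itself a target gene of NF-kB, had the lowest mean and the widest ratio of the TRAF proteins, at 0.874, 2.92 and 0.359 FPKM (1.39 ± 1.36), 8.15-fold between rats 35 and 70.

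Of the genes named for Traf3, Traf3ip3, known from lymphocytes, was at 3.87, 9.12 and 1.30 FPKM (4.77 ± 3.99) and the 3 intervals were apart. Traf3ip2, the adaptor Act1 of interleukin 17 receptors, was at 3.44, 6.51 and 2.12 FPKM (4.03 ± 2.25). Both were highest in rat 35 and lowest in rat 70, by over 2-fold. Traf3ip1, a protein of intraflagellar transport in cilia, was at 4.56, 4.18 and 2.74 FPKM (3.83 ± 0.961), under 2-fold apart.

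Levels of ligand and receptor can be set side by side within a rat, because FPKM is per length. Of 23 known pairs, 6 had both genes at a mean of 1 FPKM or more. With 3 rats the smallest p of an exact sign-flip permutation test is 0.25, so none is given. The receptor was the more abundant in every rat in 3 pairs. For the 1 row of Tnf and of Ltb used here, Tnfrsf1a exceeded Tnf by 27.4-fold, 36.6-fold and 45.8-fold in rats 19, 35 and 70. For Tnfrsf1b over Tnf the ratios were 3.77, 9.51 and 8.00. Ltbr exceeded Ltb by 26.7-fold, 36.2-fold and 43.6-fold. On the scale log2(FPKM + 1) the ligand minus the receptor was -4.17 ± 0.45 for Tnf and Tnfrsf1a, -1.93 ± 0.78 for Tnf and Tnfrsf1b and -4.04 ± 0.43 for Ltb and Ltbr (SD, n = 3). With both rows of Tnf and of Ltb summed, an alternative that was not planned, these means were -3.88, -1.64 and -3.88. The receptors then exceeded their ligands by less in every rat.

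The ligand was the more abundant in every rat in 1 pair, Tnfsf10 and its receptor Tnfrsf10b, with differences of 2.23, 1.54 and 1.21 on that scale (1.66 ± 0.52). For the other 2 pairs the sign differed between rats. Tnfsf10 minus Tnfrsf11b was -0.52, 1.04 and -0.34 (0.06 ± 0.86), so TRAIL exceeded osteoprotegerin only in rat 35. Tnfsf12 minus Tnfrsf12a was 0.84, 2.18 and -0.23 (0.93 ± 1.21), where Tnfsf12 varied between rats and its receptor was nearly level. Transcript levels of a pair say nothing of which cells carry each protein.

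**Figure D3:**
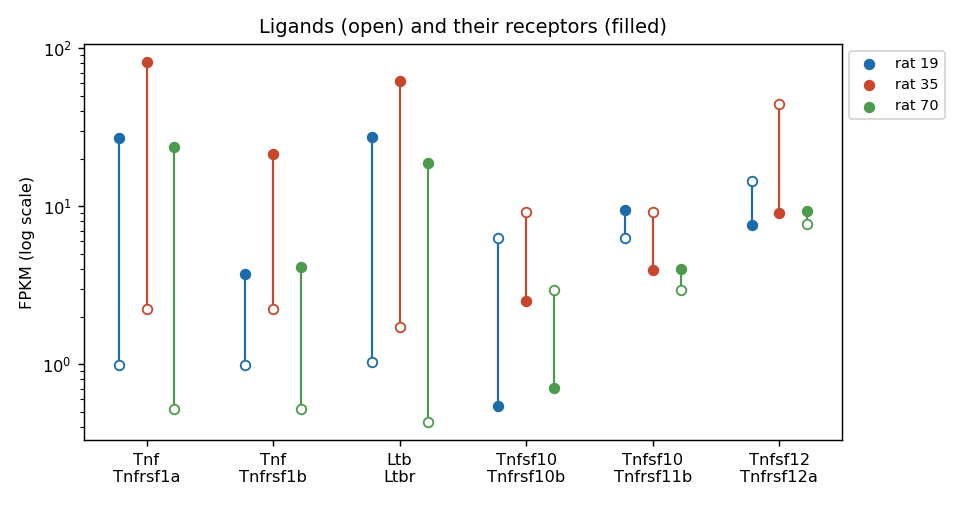
Level in FPKM (log axis) of the ligand (open circle) and the receptor (filled circle) in each rat, for the 6 pairs with both genes at a mean of 1 FPKM or more. Tnfrsf1a and Ltbr lie over 26-fold above Tnf and Ltb in every rat, for the 1 row of each ligand used and not for its rows summed. In the pair of Tnfsf12 and Tnfrsf12a the ligand lies above the receptor in rats 19 and 35 and below it in rat 70.

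The 18 members under a mean of 1 FPKM were 9 ligands and 9 receptors, many of them known from lymphocytes. Whole fragments could be recovered for 15 of them. The 13 markers of T and NK cells summed to 26.4, 110 and 21.6 FPKM in rats 19, 35 and 70. The 7 of them that reached a mean of 1 were all highest in rat 35, beside 45.4% of all genes. That mean includes rat 35, so a marker that is high in rat 35 passes it more easily. Most of that sum came from Cd4, at 10.8, 36.8 and 14.1 FPKM, and Cd8a, at 6.30, 46.4 and 4.22 FPKM. Cd3e, a part of the T cell receptor complex, was at 0.428, 1.35 and 0.359 FPKM, and Gzmb was listed at 0 in every rat.

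In rat 35 alone Tnfrsf8, the receptor CD30 of activated lymphocytes, was above 1 FPKM, at 0.0828, 1.24 and 0.562 FPKM in rats 19, 35 and 70, from at least 5, 79 and 35 fragments, and all 3 intervals were apart. It lies 19050 bp from Tnfrsf1b on chromosome 5 (Rnor 6.0), which was also highest in rat 35. Tnfsf18, the ligand of the T cell receptor GITR, was at 0.278, 0.963 and 0 FPKM, from at least 9, 33 and 0 fragments. Its receptor Tnfrsf18 was listed at 0, 0.649 and 0 FPKM. Rat 35 was the highest in each of these 3 genes.

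Tnfsf15, a ligand of Tnfrsf25 known from endothelium, had the opposite pattern, at 0.673, 0.0578 and 1.66 FPKM, from at least 11, 1 and 28 fragments. The interval of rat 35, 0.00146 to 0.322 FPKM, lay below both others, as it did for the receptor Tnfrsf25. Summed endothelial markers were highest in rat 35, at 273 FPKM against 160 and 118, and a relation of Tnfsf15 to them was not tested. Faslg, the ligand of Fas, stood at 0.436, 0.0748 and 0.384 FPKM, from at least 11, 2 and 10 fragments, and so too few for an order of the rats: the interval of rat 35, 0.00907 to 0.270 FPKM, overlapped that of both others.

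Tnfrsf4, the receptor OX40, was highest in rat 19, at 1.45, 0.896 and 0.429 FPKM. Tnfrsf14, a receptor of Tnfsf14 and Lta, followed the same order at 1.13, 0.827 and 0.212 FPKM. Tnfrsf9, the receptor of Tnfsf9, was level within counting error, at 0.882, 0.957 and 0.729 FPKM. Tnfrsf13c, the BAFF receptor of B cells, was at 0.701, 0.871 and 0.143 FPKM. Cd27 and Tnfrsf13c thus shared a low value in rat 70, where they rested on at least 2 and 4 fragments.

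The other 7 members above 0 did not exceed 0.533 FPKM in any rat. They were Tnfsf14, Cd70, Tnfrsf13b, Tnfsf8, Lta, Cd40lg and Tnfrsf17, with highest levels of 0.506, 0.533, 0.257, 0.208, 0.120, 0.0746 and 0.126 FPKM. The fewest fragments that fit were 13 or less in any rat, among the 6 for which fragments were recovered. Differences between rats were not detectable at this depth for most of them. Lta, the partner of Ltb, had 0.120, 0.0566 and 0.0290 FPKM, from at least 4, 2 and 1 fragments.

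**Figure D4:**
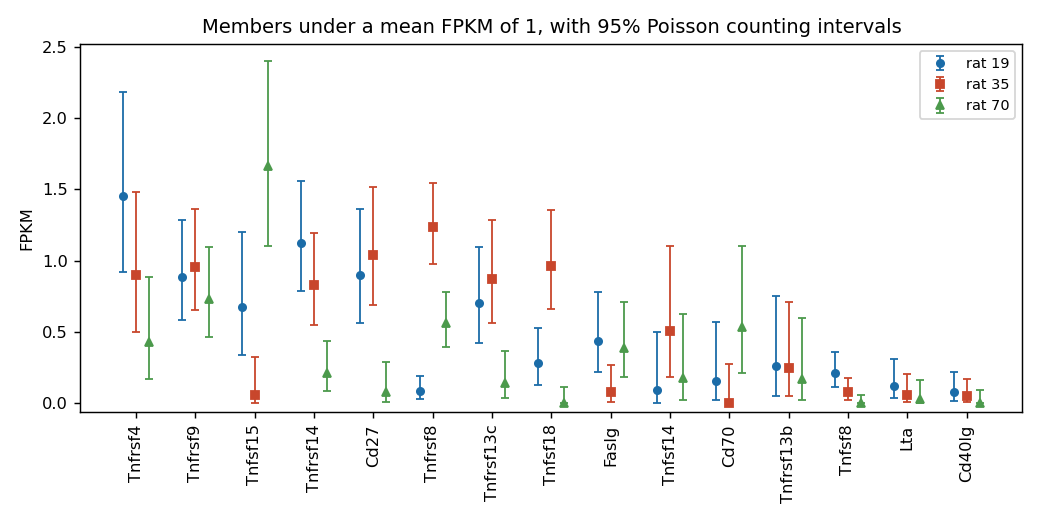
Level in FPKM of the 15 members under a mean of 1 FPKM for which fragments were recovered, by rat, with exact 95% Poisson intervals that cover counting error only. Tnfrsf8 and Tnfsf18 are highest in rat 35 with intervals apart from both other rats, and Tnfsf15 is lowest in it.

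Of 8 genes of the superfamily and its adaptors that the rule did not take, 4 reached a mean of 1 FPKM. All 4 were over 2-fold apart and 3 were highest in rat 35, beside 42.5% and 45.4% of all genes. Ngfr, the low affinity neurotrophin receptor, was at 1.46, 3.51 and 0.479 FPKM in rats 19, 35 and 70. Its mean over rats 19 and 70 was under 1 FPKM, so it is among the 4 only with rat 35 counted. Relt was at 4.95, 10.3 and 3.51 FPKM and Rell1, a protein of the same small family, at 2.48, 6.33 and 3.60 FPKM. These 3 were highest in rat 35, while Rell2 was far lower there, at 19.2, 1.68 and 30.6 FPKM. The neuronal markers were lowest in that rat too, and a relation of Rell2 to them was not tested. Eda, Edar, Eda2r and Edaradd, the ectodysplasin branch, did not exceed 1.09 FPKM in any rat.

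Among 13 genes of death receptor signalling, all at a mean of 1 FPKM or more, 10 were over 2-fold apart (76.9%, against 42.5% of all genes) and 11 were highest in rat 35 (84.6%, against 45.4%). The list deviated by -0.06, 0.74 and -0.55 in rats 19, 35 and 70. Ripk3, the kinase of necroptosis, was at 12.3, 30.6 and 2.68 FPKM, and its substrate Mlkl, which forms pores in the membrane, at 3.80, 9.08 and 1.08 FPKM. Both were highest in rat 35 and lowest in rat 70. Dap was at 33.7, 128 and 21.3 FPKM. The 1 gene of the list that was lowest in rat 35 was Madd, an adaptor of Tnfrsf1a that is abundant in neurons, at 19.7, 9.56 and 36.2 FPKM.

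In the ubiquitin and kinase complexes that carry the signal to NF-kB, 13 of 30 genes were over 2-fold apart (43.3%, near the 42.5% of all genes) and 23 were highest in rat 35 (76.7%, against 45.4%), with deviations of -0.18, 0.41 and -0.30. Nfkbia, the inhibitor that NF-kB induces, was at 26.1, 57.6 and 44.6 FPKM. Rel, an NF-kB subunit of immune cells, was at 1.71, 5.90 and 0.845 FPKM, and the NF-kB regulator Bcl3 at 5.42, 16.3 and 3.60 FPKM. Sharpin, a part of the linear ubiquitin ligase, varied less, at 29.8, 34.8 and 23.4 FPKM. Rat 35 was highest in all 4.

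Known target genes of NF-kB were found for 23 of 24 symbols, and 19 reached a mean of 1 FPKM. Of these 16 were over 2-fold apart (84.2%, against 42.5% of all genes), 15 were highest in rat 35 (78.9%, against 45.4%) and 2 were lowest in it, with deviations of -0.27, 0.81 and -0.59. Bcl2a1, an inhibitor of apoptosis in leukocytes, was at 14.9, 91.4 and 4.71 FPKM, and the chemokine Ccl2 at 4.16, 40.2 and 5.89 FPKM. Both were highest in rat 35. Cxcl1, at 0.833, 9.97 and 1.08 FPKM, is among the 19 only with rat 35 counted. Sod2, the mitochondrial superoxide dismutase, was highest in rat 70, at 40.0, 52.0 and 57.8 FPKM. The lists share Nfkbia, Tnfaip3, Birc3, Nfkb2 and Relb.

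Sheddases and related proteins, which release ligands and receptors from the cell surface, had 7 of 8 genes at a mean of 1 FPKM or more, with 3 over 2-fold apart (42.9%, near the 42.5% of all genes) and 6 highest in rat 35 (85.7%, against 45.4%). Adam17, the TNF converting enzyme, was at 15.8, 39.4 and 10.5 FPKM. Rhbdf2, which brings that enzyme to the surface, was at 7.97, 18.8 and 1.86 FPKM. Timp3, an inhibitor of the same enzyme, was at 27.4, 53.6 and 46.3 FPKM, and Adam10, a related sheddase, at 26.6, 54.0 and 28.3 FPKM. Rat 35 was highest in all 4 of these, and the median gene of this list deviated by -0.24, 0.64 and -0.43.

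**Figure D5:**
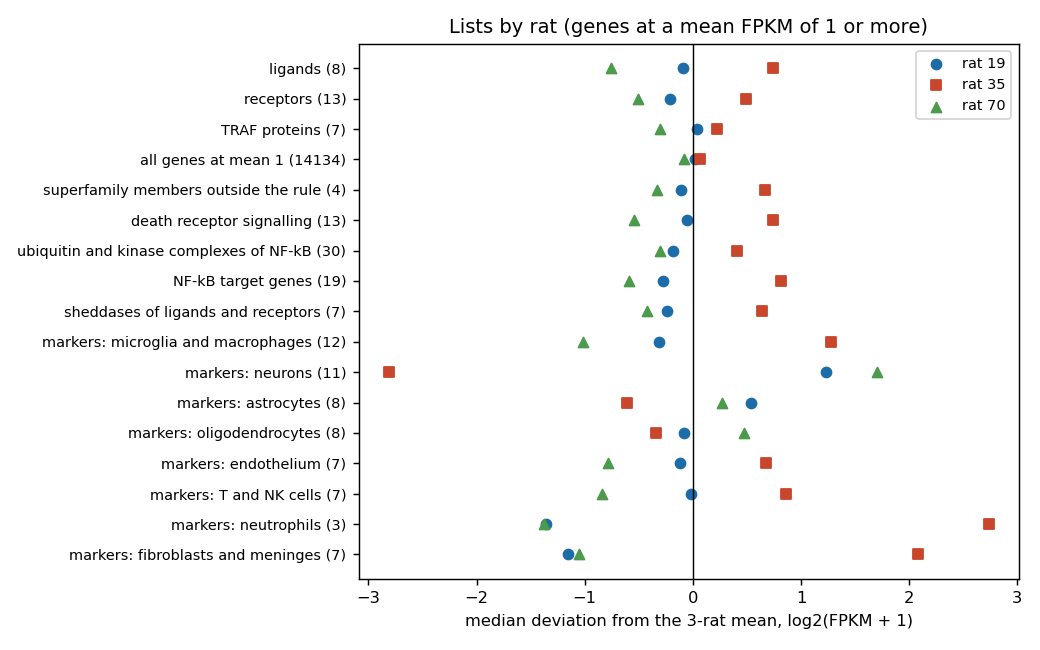
Median deviation of log2(FPKM + 1) from the mean over the 3 rats, by rat, for the members by role, all genes, the lists of the pathway and the marker lists, with the number of genes at a mean of 1 FPKM or more in brackets. Ligands deviate by 0.74 and receptors by 0.49 in rat 35, between TRAF proteins at 0.22 and the markers of microglia and macrophages at 1.28, while neuronal markers deviate by -2.81.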

How the data were processed

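Messenger RNA was prepared from total RNA, per the labels' protocols. The deposited values are FPKM, which the authors made from normalized fragment counts per gene, per the labels' design text. The sources used here do not give how they normalized. The submitters' processing notes name HISAT2 2.0.4, StringTie 1.3.0 and Rnor 6.0, without their roles.

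FPKM was used as deposited and compared as log2(FPKM + 1) for genes at a mean of 1 FPKM or more (Python 3.11.15, pandas 2.3.3, scipy 1.17.1). On this scale the differences of low genes are understated. Fragments were recovered as the fewest whole numbers in all 3 rats, within 0.001, for some length of 200 to 20000 bp. Of 1408 genes checked 98.7% had such a length, and 0% after random changes of up to 3%. The true number can be a whole multiple. Poisson intervals (95%) cover counting error only. The step was tested on simulated data. An exact 0 can be a failed estimate.

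All rats form 1 group, so no test between groups was made, and each member is given with mean and SD or its range. The rule named every member, and of each further list up to 4 genes by mean or by SD. Members and lists were chosen with earlier results of these data known, and the printed promoters after values were seen. Alternatives were other pseudocounts, minimums and scalings, leaving out each rat, and summing both rows of Tnf and of Ltb.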

Additional observations from a re-analysis of the deposited data

How the results depend on the processing

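With a pseudocount of 0.1, Tnf minus Tnfrsf1a was -5.01, Ltb minus Ltbr -4.95 and Tnfsf10 minus Tnfrsf10b 2.35 (log2). With it 5 sheddase genes were over 2-fold apart, beside 49.3% of all genes. A minimum mean of 5 FPKM left 18 members. Of these, 10 were over 2-fold apart and 10 highest in rat 35, beside 40.9% and 45.3% of genes. With this minimum 2 superfamily genes outside the rule and 9 NF-kB target genes were over 2-fold. Fewer genes of both lists reach it, so these counts are not lower shares by themselves. Ngfr and Rell1, with means of 1.82 and 4.14 FPKM, are no longer counted. Without a minimum there were 48 members, 6 of them lowest in rat 35, beside 38% of genes. The highest minus the lowest deviation of ligands was then 0.68 in place of 1.50. Rescaling to a sum of 1000000 put 6 sheddase genes over 2-fold, beside 45.5% of all genes. It raised the median gene by 0.80, 0.85 and 0.96 (log2) in rats 19, 35 and 70. Requiring 1 FPKM in every rat, an alternative chosen after seeing the data, gave 12 of 22 members over 2-fold and 13 highest in rat 35. The shares of genes were 38% and 46.5%.

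Leaving out 1 rat at a time gave 4 to 17 members over 2-fold, beside 11.1% to 37.2% of genes, and 6 to 7 lowest in rat 35. With rat 35 and 1 other rat left, each member is either highest or lowest in rat 35. Without rat 19 and without rat 70, 25 members were highest in it each time, and 43.5% and 46.4% of genes were lowest in it. The highest minus the lowest deviation ranged from 0.41 to 1.04 for receptors and from 0.22 to 0.59 for TRAF proteins. For ligands it ranged from 0.78 to 1.55 and was 0.80 without rat 35. Genes over 2-fold ranged from 0 to 3 outside the rule, 3 to 10 in death receptor signalling, 2 to 11 in the NF-kB complexes and 3 to 13 among NF-kB targets. The lowest value of each came without rat 35, apart from the ligand deviation, which was lowest without rat 70. The counts of members highest or lowest in rat 35 have no value without that rat. Of 188 alternatives of the differences of single members 182 stayed within 1 SD of the levels of that member over the rats. That SD grows with the difference itself, so staying within it is a weak check. Some small differences changed sign and still stayed within it, as for Tnfrsf19, from -0.32 to 0.31 (log2) without rat 19. Of 165 alternatives of other results 28 moved. Depth limits the members under 1 FPKM, and no paired analysis was possible because there is 1 group.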
